A study of Mus musculus with 7 samples.

Results

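Methylation at 382 CpG probes was compared between 2 arrays of mouse brain DNA, titled A2B5_mas and PSA-NCAM_mas, and the array titled Met_0. A probe was taken as a member when its methylation fraction was at least 0.2 below Met_0 in both brain arrays, or at least 0.2 above it in both. The rule found 26 probes below Met_0 and 57 above it, together 83 of the 382 probes. The direction and size of these differences were what chose the members, so they are given as a description. Each title stands for 1 array, and no difference carries a p-value.

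The series holds 7 custom Illumina GoldenGate methylation arrays of bisulphite-converted genomic DNA, all from mice of strain C57BL/6. The 2 arrays with the tissue label Brain come first here, A2B5_mas and PSA-NCAM_mas, and 5 arrays with the tissue label DNA carry the titles Met_0, Met_25, Met_50, Met_75 and Met_100. The series text calls the animals healthy and the samples controls. The labels give no sex, age, brain region or cell isolation step for any array, and do not explain the ending of the brain titles. How the Met_0 DNA was made is not stated either, and its label carries the same note on extraction from brain as the other arrays. It was read as the unmethylated end of a graded control series.

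A cytosine followed by a guanine (a CpG) can carry a methyl group on the cytosine, and bisulphite treatment changes the unmethylated cytosines so that an array can tell the 2 states apart. In vertebrate genomes most CpGs outside dense clusters are methylated, while the dense clusters at many promoters, called CpG islands, are mostly free of it. Promoters of genes used only in the germ line or in a few adult tissues are often methylated elsewhere. PSA-NCAM, a neural cell adhesion molecule carrying polysialic acid, marks young migrating neurons, and the ganglioside epitope A2B5 marks glial progenitors.

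The members below Met_0 were led by receptor genes. With the lineage gene Olig2 added, the 3 of them with the largest differences among those having a single promoter window in the RefSeq table (assembly GRCm38.p6) are shown as the 250 bases before the annotated start, with every CG in capitals, to show what the promoters of these genes look like. Ptger4 (chr15:5244188-5244437, minus strand) encodes a receptor for prostaglandin E2. Hcrtr2 (chr9:76323624-76323873, minus strand) encodes a receptor for the wake-promoting orexin peptides. Ntsr2 (chr12:16653220-16653469, plus strand) encodes a receptor for neurotensin, and Olig2 (chr16:91225300-91225549, plus strand) a transcription factor of the oligodendrocyte lineage.
Ptger4: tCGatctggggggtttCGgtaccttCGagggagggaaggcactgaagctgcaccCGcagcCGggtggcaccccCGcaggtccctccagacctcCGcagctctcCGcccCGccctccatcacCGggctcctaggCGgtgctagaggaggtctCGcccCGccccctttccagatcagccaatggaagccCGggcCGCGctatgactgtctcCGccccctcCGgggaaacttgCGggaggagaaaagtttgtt
Hcrtr2: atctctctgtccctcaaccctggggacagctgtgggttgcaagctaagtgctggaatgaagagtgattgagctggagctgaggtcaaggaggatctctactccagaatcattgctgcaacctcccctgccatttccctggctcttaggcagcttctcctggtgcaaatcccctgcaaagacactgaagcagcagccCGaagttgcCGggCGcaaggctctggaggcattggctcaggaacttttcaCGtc
Ntsr2: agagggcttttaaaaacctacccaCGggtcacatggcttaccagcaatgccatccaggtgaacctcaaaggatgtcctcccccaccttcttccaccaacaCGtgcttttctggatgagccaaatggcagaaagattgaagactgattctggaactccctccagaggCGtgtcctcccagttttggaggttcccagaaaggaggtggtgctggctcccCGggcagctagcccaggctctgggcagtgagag
Olig2: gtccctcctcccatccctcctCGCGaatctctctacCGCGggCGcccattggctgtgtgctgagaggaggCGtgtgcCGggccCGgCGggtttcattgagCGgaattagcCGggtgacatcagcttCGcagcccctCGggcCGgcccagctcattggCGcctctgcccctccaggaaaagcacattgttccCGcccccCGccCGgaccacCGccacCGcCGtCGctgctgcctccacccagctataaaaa

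The same choice among the members above Met_0, with the astrocyte gene Gfap added, gave 4 further promoters. Strc (chr2:121380941-121381190, minus strand) encodes stereocilin of the inner ear hair bundle. Lep (chr6:29059971-29060220, plus strand) encodes leptin, the hormone of fat cells. Chrna9 (chr5:65966874-65967123, plus strand) encodes a subunit of the nicotinic acetylcholine receptor of inner ear hair cells, and Gfap (chr11:102897201-102897450, minus strand) the intermediate filament of astrocytes.
Strc: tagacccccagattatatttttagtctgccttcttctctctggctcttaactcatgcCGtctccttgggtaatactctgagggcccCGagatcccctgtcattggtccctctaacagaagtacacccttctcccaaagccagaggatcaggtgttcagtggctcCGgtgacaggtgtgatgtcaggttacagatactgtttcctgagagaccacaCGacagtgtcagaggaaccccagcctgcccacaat
Lep: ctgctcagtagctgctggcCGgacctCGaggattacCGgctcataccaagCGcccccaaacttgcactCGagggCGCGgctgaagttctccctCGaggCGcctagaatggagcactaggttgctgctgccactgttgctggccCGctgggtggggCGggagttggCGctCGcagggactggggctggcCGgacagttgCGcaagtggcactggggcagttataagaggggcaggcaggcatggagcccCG
Chrna9: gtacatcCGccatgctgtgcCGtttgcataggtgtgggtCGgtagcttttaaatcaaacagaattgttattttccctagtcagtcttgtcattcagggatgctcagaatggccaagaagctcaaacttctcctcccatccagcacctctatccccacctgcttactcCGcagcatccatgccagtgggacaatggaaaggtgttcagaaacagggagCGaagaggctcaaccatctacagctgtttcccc
Gfap: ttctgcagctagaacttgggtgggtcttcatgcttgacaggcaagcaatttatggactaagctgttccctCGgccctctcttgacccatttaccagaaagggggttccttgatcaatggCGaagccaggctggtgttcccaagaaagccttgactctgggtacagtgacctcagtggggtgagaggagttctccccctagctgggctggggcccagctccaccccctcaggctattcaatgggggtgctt

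These 250 bases varied in their number of CG pairs. Among the members below Met_0 it was 22 in Olig2, 19 in Ptger4, and 4 in each of Hcrtr2 and Ntsr2. Among those above Met_0 it was 16 in Lep, 5 in Chrna9, 4 in Strc and 2 in Gfap. CG reads the same on both strands, and over the same 250 bases it occurs in 92.1% of the 32851 promoters of the RefSeq table, with a median of 6, and in 98.9% of the 371 promoters of genes on the array, with a median of 12. The labels give no position for the measured CpG, so it may lie outside the bases shown. Windows were matched for only 18 of the 26 members below Met_0 and 45 of the 57 above it, under 80% in each class, so promoter CpG content was not compared between the classes.

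Over all probes the brain arrays and Met_0 had similar levels in the middle of the distribution. The median fraction was 0.101 in A2B5_mas and 0.0970 in PSA-NCAM_mas, against 0.131 in Met_0, and the median difference of the brain mean from Met_0 was -0.0165. The mean difference had the other sign, 0.0244. The share of all probes called was 6.81% below Met_0 and 14.9% above it. Only a probe with at least 0.2 in Met_0 can be called below, and of the 126 such probes 20.6% were called. Of the 83 members, 68.7% were above Met_0. After quantile normalization of the 3 arrays the counts were 49 below and 49 above, an even split, and on a log2 odds scale with a difference of at least 1 they were 87 and 81 (48.2% above).

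**Figure D1:**
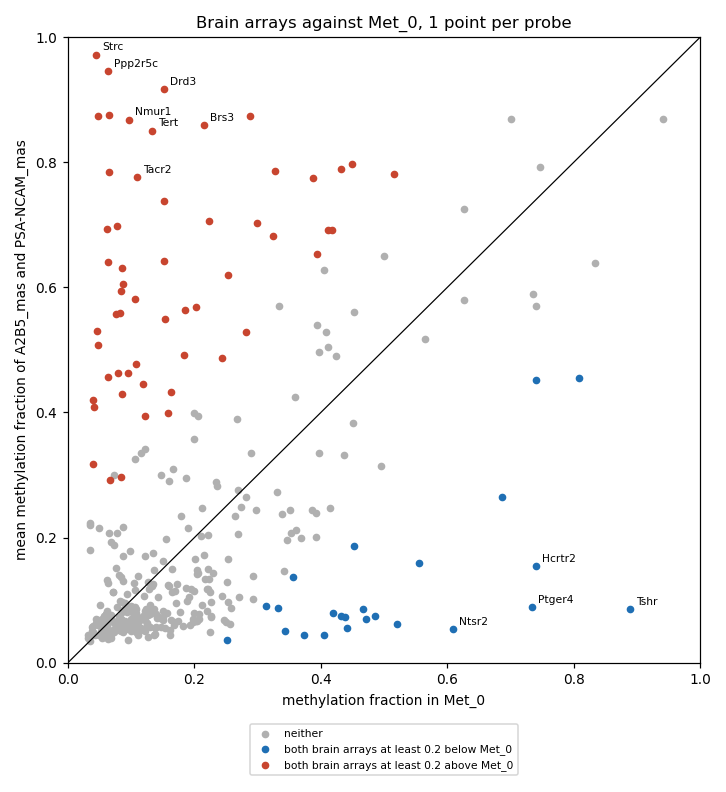
Mean methylation fraction of the 2 brain arrays (vertical axis, 0 to 1) against the fraction in Met_0 (horizontal axis, 0 to 1) for 379 probes, with members below Met_0 in blue, members above it in red and all other probes in grey; the line marks equal values. Tshr lies furthest under the line, with 0.889 in Met_0, and Strc furthest above it, with 0.0451 in Met_0.

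The middle arrays of the Met series gave the only gauge of array error. The departure of Met_50 from the midpoint of Met_25 and Met_75 corresponds to an SD of 0.0325 between 2 arrays over all probes, and of 0.0323 over the members. The gauge takes each probe as straight from Met_25 to Met_75, so any curvature there counts as error. It is not a spread of replicates, and it says nothing about a fault in Met_0 itself. At the limit below Met_0, the 3 members just inside were Kiss1r, Fbxo11 and Auts2, whose smaller difference ran from 0.209 to 0.218. Just outside lay Prlhr (0.192), Slc12a2 (0.190) and Reln (0.188). Above Met_0 the last members were Otog (0.204), L1cam (0.210) and Edg7 (0.213), with Grin2c (0.199), Galr3 (0.198) and Crhr2 (0.198) just outside. A further 14 probes passed the limit in 1 brain array only, 5 below and 9 above.

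The 26 probes below Met_0 were nearly all unmethylated in brain. Both brain arrays were under 0.2 at 22 of them and under 0.1 at 17, while Met_0 ran from 0.251 to 0.889 with a median of 0.460. For comparison, both brain arrays were under 0.2 at 252 of the 382 probes and at 35 of the 100 probes that had at least 0.2 in Met_0 and were not called below. The rule separates these 100 probes from the members by the same brain values, so the counts are a description. Over the 26 members the median was 0.0775 in A2B5_mas and 0.0785 in PSA-NCAM_mas.

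Hormone receptors gave the largest single difference and 3 of the 26 members. They came from a group of 26 hormone signalling probes, of which 11.5% were thus called below Met_0, against 6.81% of all probes. In this group 10 probes had at least 0.2 in Met_0. Over the alternatives 0 to 6 hormone probes were below, with 0 among probes rising by at least 0.3 from Met_0 to Met_100. Tshr, the thyrotropin receptor of the thyroid, had 0.0925 in A2B5_mas and 0.0780 in PSA-NCAM_mas, against 0.889 in Met_0. Prlr, the prolactin receptor, had 0.0769 in A2B5_mas and 0.0698 in PSA-NCAM_mas, against 0.439 in Met_0. Both genes were thus near the bottom of the scale in brain and well off it in Met_0. Lhcgr, the luteinising hormone receptor of the gonads, differed from them in keeping an intermediate brain level, with 0.509 in A2B5_mas and 0.395 in PSA-NCAM_mas, against 0.740 in Met_0.

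Neuropeptide receptors supplied 5 members below Met_0, 9.43% of their 53 probes against 6.81% of all probes. Only probes with at least 0.2 in Met_0 can be called below, and these were 21 of the 53, against 126 of all 382. The 2 shares are therefore not on an equal footing. Hcrtr2 had 0.152 in A2B5_mas and 0.156 in PSA-NCAM_mas, against 0.740 in Met_0. Ntsr2 had 0.0532 in A2B5_mas and 0.0537 in PSA-NCAM_mas, against 0.609 in Met_0. Npy2r, a presynaptic receptor for neuropeptide Y, had 0.0710 in A2B5_mas and 0.0691 in PSA-NCAM_mas, against 0.471 in Met_0. In these 3 genes the 2 brain values differed by 0.00445 at most, far less than either differed from Met_0. Vipr1, a receptor for vasoactive intestinal peptide, had 0.0405 in A2B5_mas and 0.0489 in PSA-NCAM_mas, against 0.405 in Met_0. Kiss1r, the kisspeptin receptor of gonadotropin-releasing hormone neurons, had the smallest difference of the 5, -0.223. Of the other 42 neuropeptide receptor probes outside both classes, Prlhr, the prolactin-releasing peptide receptor, stood lowest at -0.195.

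Ionotropic glutamate receptors of the AMPA, kainate and NMDA types carry fast excitatory transmission. Of their 18 probes 3 (16.7%, against 6.81% of all probes) were below Met_0 and 0 above it, and on the log2 odds scale 5 were below and 3 above. Gria1, an AMPA receptor subunit, had 0.0870 in A2B5_mas and 0.0831 in PSA-NCAM_mas, against 0.467 in Met_0. Grin1, the obligatory NMDA receptor subunit, had 0.0448 in A2B5_mas and 0.0438 in PSA-NCAM_mas, against 0.373 in Met_0. The brain values of both were under 0.1. Gria3, an AMPA receptor subunit on the X chromosome, had 0.495 in A2B5_mas and 0.415 in PSA-NCAM_mas, against 0.809 in Met_0. The median difference of the family was -0.0223, close to the median of -0.0165 over all probes. Only 3 of the 18 probes had at least 0.2 in Met_0, and these 3 were the members. The other 15 could not be called below by the rule, so their absence from that class says nothing of the family. Grin2c, an NMDA receptor subunit, was just outside the upper limit with a mean difference of 0.227, and under several alternatives, among them a size of 0.15 and the subtraction of the median difference, 1 ionotropic probe was called above Met_0.

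Genes of neuronal adhesion, axons and neurotrophic signalling had 6 of 23 probes below Met_0 (26.1%, against 6.81% of all probes) and 1 above it. At least 0.2 in Met_0, which a call below requires, was found at 12 of the 23, against 126 of all 382. The group was extended after values had been seen, so its count says nothing of these functions as a whole. Bdnf, a neurotrophin, had 0.0622 in A2B5_mas and 0.0472 in PSA-NCAM_mas, against 0.441 in Met_0. Rtn4r, the receptor through which myelin inhibits axon growth, had 0.0744 in A2B5_mas and 0.0760 in PSA-NCAM_mas, against 0.486 in Met_0. Its ligand gene Rtn4, which encodes Nogo, had 0.0781 in A2B5_mas and 0.0816 in PSA-NCAM_mas, against 0.420 in Met_0. Ligand and receptor of this pair were therefore both low in brain and intermediate in Met_0. Klk8, by its current symbol a secreted brain serine protease (the name has also been used for Klk1b8), had 0.0654 in A2B5_mas and 0.0595 in PSA-NCAM_mas, against 0.521 in Met_0. In Klk8 too both brain values were under 0.1. Auts2, a gene linked to neurodevelopmental disorders, was nearer the limit, with a difference of -0.219. Reln, which encodes the extracellular matrix protein reelin, lay just outside at -0.195.

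Lineage and progenitor genes had few members. Olig2 had 0.0750 in A2B5_mas and 0.0735 in PSA-NCAM_mas, against 0.431 in Met_0. Id4, an inhibitor of basic helix-loop-helix factors that acts in neural progenitors, had 0.0533 in A2B5_mas and 0.0488 in PSA-NCAM_mas, against 0.343 in Met_0. These were the only members below Met_0 among 10 myelin and oligodendrocyte probes (10%) and 12 Notch, Hes, Id and progenitor probes (8.33%). Of all probes 6.81% were below. Each of these groups also had 1 probe above Met_0, again 10% and 8.33%, against 14.9% of all probes. Mag, a myelin adhesion protein, came closest among the myelin genes in neither class, at -0.181. Id3, another Id inhibitor, had a difference of -0.156.

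The remaining members below Met_0 named here were signalling genes and Fbxo11, which was grouped with the inner ear and deafness genes. Ptger4 had 0.0976 in A2B5_mas and 0.0790 in PSA-NCAM_mas, against 0.735 in Met_0, the difference next in size after Tshr. Agtr1a, the main angiotensin II receptor, had 0.151 in A2B5_mas and 0.168 in PSA-NCAM_mas, against 0.555 in Met_0. P2rx2, an ATP-gated ion channel, had 0.266 in A2B5_mas and 0.263 in PSA-NCAM_mas, against 0.687 in Met_0. Of these 3 receptors, P2rx2 alone had brain levels above 0.2. Adcy9, an adenylyl cyclase, had 0.208 in A2B5_mas and 0.165 in PSA-NCAM_mas, against 0.452 in Met_0. Drd4, a dopamine receptor, had 0.0833 in A2B5_mas and 0.0913 in PSA-NCAM_mas, against 0.333 in Met_0. Fbxo11, a ubiquitin ligase subunit whose mouse mutant has middle ear disease, had 0.0405 in A2B5_mas and 0.0305 in PSA-NCAM_mas, against 0.251 in Met_0, the lowest Met_0 value of the 26.

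**Figure D2:**
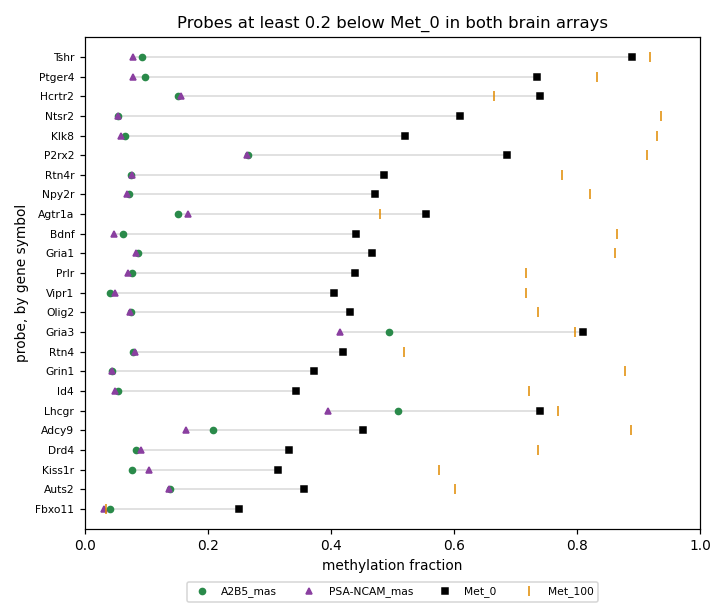
Methylation fraction (horizontal axis, 0 to 1) of 24 probes at least 0.2 below Met_0 in both brain arrays, 1 row per gene, ordered by the size of the difference; green circles are A2B5_mas, purple triangles PSA-NCAM_mas, black squares Met_0 and orange bars Met_100. The brain points lie under 0.2 in 20 rows, while the Met_0 squares run from 0.251 to 0.889.

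The other Met arrays were not used by the rule. Both brain values, which the rule sets below Met_0, were also below all other Met arrays at 25 of the 26 members. The exception was Fbxo11, which had 0.0336 in Met_100. Both brain values were below every Met array at 217 of all 382 probes. Among the 100 probes with at least 0.2 in Met_0 that were not called below, this held at 59. Met_0 exceeded Met_25 at 8 members, although it is titled as the lower end of the series, among them Tshr, Ptger4, Hcrtr2, Agtr1a, Prlr, Rtn4 and Fbxo11. Met_0 exceeded Met_25 at 19 of all 382 probes, and at 9 of the 100 probes with at least 0.2 in Met_0 that were not called below. Choosing probes with a high Met_0 value favours this order, so the counts are a description. At Hcrtr2, Agtr1a and Fbxo11 Met_0 was also above Met_100, and at Gria3 it was above Met_100 but not above Met_25. For Hcrtr2 the 5 Met arrays in ascending order of their number had 0.740, 0.416, 0.455, 0.539 and 0.664. The rise from Met_0 to Met_100 reached 0.3 at 11 of the 26 members and at 77 of the 100 probes with at least 0.2 in Met_0 that were not called below, whose median in Met_0 was lower (0.460 in the 26 members, against 0.285). Whether the Met_0 DNA carried methylation at these CpGs, or the signal of that array was raised there, was not tested.

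The 57 probes above Met_0 were spread over the intermediate and high range in brain. Their median was 0.640 in A2B5_mas and 0.600 in PSA-NCAM_mas, against 0.109 in Met_0. Both brain arrays were over 0.8 at 9 of them and between 0.2 and 0.8 at 42. Met_0 was under 0.1 at 26 members and under 0.2 at 40, and it reached 0.515 at most. The difference had a median of 0.396 and ran from 0.213 to 0.926.

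Inner ear and deafness genes had 8 of 31 probes above Met_0 (25.8%, against 14.9% of all probes) and 1 below. The counts were 6 above and 4 below after quantile normalization, and 12 above and 5 below on the log2 odds scale. Several of these genes build the mechanosensitive bundle of hair cells. Strc had 0.972 in A2B5_mas and 0.971 in PSA-NCAM_mas, against 0.0451 in Met_0, the largest difference of all probes. Tectb, a protein of the tectorial membrane, had 0.638 in A2B5_mas and 0.644 in PSA-NCAM_mas, against 0.0634 in Met_0. Cdh23, the cadherin of the tip link, had 0.542 in A2B5_mas and 0.472 in PSA-NCAM_mas, against 0.0476 in Met_0. All 3 started from under 0.1 in Met_0. Ush1c, the hair bundle scaffold harmonin, had 0.805 in A2B5_mas and 0.744 in PSA-NCAM_mas, against 0.388 in Met_0. Gje1, a connexin symbol that has also been used for Gjc3, had 0.615 in A2B5_mas and 0.501 in PSA-NCAM_mas, against 0.0761 in Met_0. Myo15 (an unconventional myosin), Bsnd (barttin, a chloride channel subunit) and Otog (otogelin) completed the group, with differences of 0.308, 0.260 and 0.226. The other 22 probes lay in neither class, and the group's median difference was 0.00232, so most of the group did not share the difference of its leading genes.

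Hormone genes had 7 of 26 probes above Met_0 (26.9%, against 14.9% of all probes) and 3 below. Over the alternatives 5 to 9 were above and 0 to 6 below. Lep had 0.889 in A2B5_mas and 0.860 in PSA-NCAM_mas, against 0.0474 in Met_0. Glp2r, a gut receptor for a glucagon-like peptide, had 0.885 in A2B5_mas and 0.863 in PSA-NCAM_mas, against 0.289 in Met_0. Fshb, the pituitary hormone subunit of follicle-stimulating hormone, had 0.765 in A2B5_mas and 0.710 in PSA-NCAM_mas, against 0.151 in Met_0. Its receptor Fshr, a gonadal gene, had 0.680 in A2B5_mas and 0.708 in PSA-NCAM_mas, against 0.0623 in Met_0. Hormone and receptor of this axis were both over 0.6 in brain. Ghrhr, the pituitary receptor for growth hormone-releasing hormone, had 0.523 in A2B5_mas and 0.431 in PSA-NCAM_mas, against 0.108 in Met_0. Pthr1, now Pth1r, the parathyroid hormone receptor, and Mtnr1b, a melatonin receptor, had differences of 0.345 and 0.277. Tshr and Prlr from the same group lay at the opposite end, and the group's median difference was -0.0165.

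Neuropeptide receptors had 6 of 53 probes above Met_0, or 11.3% against 14.9% of all probes, beside the 5 below. On the log2 odds scale 11 were above and 14 below. Nmur1, a receptor for neuromedin U found mainly outside the brain, had 0.883 in A2B5_mas and 0.853 in PSA-NCAM_mas, against 0.0961 in Met_0. Tacr2, the neurokinin A receptor of smooth muscle, had 0.807 in A2B5_mas and 0.746 in PSA-NCAM_mas, against 0.109 in Met_0. Brs3, an X-linked orphan receptor of the bombesin family, had 0.876 in A2B5_mas and 0.842 in PSA-NCAM_mas, against 0.215 in Met_0. These 3 were high in both brain arrays. Uts2r, the urotensin receptor, had 0.743 in A2B5_mas and 0.670 in PSA-NCAM_mas, against 0.224 in Met_0. Trhr2, a receptor for thyrotropin-releasing hormone, and Avpr2, the X-linked kidney vasopressin receptor, had differences of 0.281 and 0.272. The group's median difference was -0.0161, close to that of all probes.

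Receptors for lipid mediators, proteases, kinins and related ligands had 7 of 32 probes above Met_0 (21.9%, against 14.9% of all probes) and 2 below. Over the alternatives 5 to 8 were above and 0 to 4 below. C5ar1, the complement receptor of myeloid cells, had 0.820 in A2B5_mas and 0.751 in PSA-NCAM_mas, against 0.0654 in Met_0. Edg8 (current symbol S1pr5), a lipid receptor of oligodendrocytes and natural killer cells, had 0.686 in A2B5_mas and 0.600 in PSA-NCAM_mas, against 0.152 in Met_0. Ltb4r2, a leukotriene B4 receptor, had 0.812 in A2B5_mas and 0.760 in PSA-NCAM_mas, against 0.327 in Met_0. Each was higher in A2B5_mas than in PSA-NCAM_mas, as were 51 of the 57 members above Met_0. The 4 others were F2rl2 (a protease-activated receptor), Bdkrb1 (the inducible kinin receptor), Tbxa2r (the thromboxane receptor) and Edg7, now Lpar3 (a lysophosphatidic acid receptor). Their differences ran from 0.244 to 0.367.

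Purine receptors had 5 of 16 probes above Met_0 (31.25%, against 14.9% of all probes) and 1 below. Over the alternatives 3 to 5 purine probes were above and 0 to 3 below. Acetylcholine receptors had 3 of 8 above (37.5%) and 0 below, and over the alternatives 3 to 4 were above and 0 to 1 below. Purine receptors answer extracellular ATP and related nucleotides. P2rx1, an ATP-gated channel of platelets and smooth muscle, had 0.754 in A2B5_mas and 0.653 in PSA-NCAM_mas, against 0.299 in Met_0. P2rx7, the ATP-gated channel of microglia and macrophages, had 0.516 in A2B5_mas and 0.412 in PSA-NCAM_mas, against 0.0951 in Met_0. The X-linked P2ry4 had 0.666 in A2B5_mas and 0.573 in PSA-NCAM_mas, against 0.253 in Met_0. In all 3 the A2B5_mas value was the higher of the brain pair, by 0.0926 to 0.104, an order found at 51 of the 57 members above Met_0. P2ry6 and P2rx5 already had 0.431 and 0.515 in Met_0, with differences of 0.357 and 0.266.

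Among the acetylcholine receptors, Chrna9 had 0.896 in A2B5_mas and 0.857 in PSA-NCAM_mas, against 0.0648 in Met_0. Chrm2, the muscarinic receptor that slows the heart, had 0.537 in A2B5_mas and 0.524 in PSA-NCAM_mas, against 0.0464 in Met_0. Chrm5, the muscarinic receptor of midbrain dopamine neurons, had 0.573 in A2B5_mas and 0.525 in PSA-NCAM_mas, against 0.153 in Met_0. Chrm1, the main muscarinic receptor of the cortex, lay on the other side with a difference of -0.194, just outside the limit. The group's median difference was 0.0992, against -0.0165 over all probes.

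Other transmitter receptors had fewer members. Drd3, a dopamine receptor of the limbic striatum, had 0.926 in A2B5_mas and 0.909 in PSA-NCAM_mas, against 0.152 in Met_0, while Drd4 was a member below. Adra1b, an adrenergic receptor, had 0.444 in A2B5_mas and 0.469 in PSA-NCAM_mas, against 0.0638 in Met_0. The adrenergic and dopamine group thus had 2 of 14 probes above (14.3%, close to the 14.9% of all probes) and 1 below. Htr1d, a serotonin receptor, had 0.714 in A2B5_mas and 0.682 in PSA-NCAM_mas, against 0.0778 in Met_0. Hrh4, the histamine receptor of blood cells, had 0.593 in A2B5_mas and 0.525 in PSA-NCAM_mas, against 0.0823 in Met_0. These 2 were the only members of the 14 serotonin and histamine probes, again 14.3%. Of 22 GABA and glycine receptor probes, 2 (9.09%, against 14.9% of all probes) were above and 0 below, and after quantile normalization 2 were above and 3 below. The members were Gabrr1, a subunit typical of the retina, with a difference of 0.366, and the X-linked Gabrq, with 0.242. The median difference of this group was -0.00508.

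Genes of blood, liver and pancreas had 4 of 6 probes above Met_0 (66.7%, against 14.9% of all probes) and 0 below. This group was also put together after values had been seen. Ctsg, a protease of neutrophil granules, had 0.657 in A2B5_mas and 0.603 in PSA-NCAM_mas, against 0.0860 in Met_0. Ifng, the cytokine interferon gamma of T and natural killer cells, had 0.609 in A2B5_mas and 0.601 in PSA-NCAM_mas, against 0.0872 in Met_0. Plg, plasminogen from the liver, had 0.705 in A2B5_mas and 0.658 in PSA-NCAM_mas, against 0.324 in Met_0. All of these are genes of cells other than neural ones. Prss2, a pancreatic trypsinogen, had a difference of 0.275, and F2, prothrombin, was outside the rule at 0.223 because only its A2B5_mas value passed. Tapbp, an antigen-loading protein used widely, had the remaining probe, at -0.0294.

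The remaining members above Met_0 were diverse. Ppp2r5c, a regulatory subunit of protein phosphatase 2A, had 0.943 in A2B5_mas and 0.947 in PSA-NCAM_mas, against 0.0634 in Met_0. Ppp3r1, the calcineurin regulatory subunit, had 0.588 in A2B5_mas and 0.538 in PSA-NCAM_mas, against 0.185 in Met_0. Tert, the catalytic subunit of telomerase, had 0.887 in A2B5_mas and 0.814 in PSA-NCAM_mas, against 0.132 in Met_0. Ppp2r5c and Tert were thus high, and Ppp3r1 intermediate. Gfap had 0.640 in A2B5_mas and 0.549 in PSA-NCAM_mas, against 0.0838 in Met_0. Slc1a3, the only other astrocyte probe, had a difference of 0.0560. L1cam, an X-linked axonal adhesion molecule, had 0.294 in A2B5_mas and 0.299 in PSA-NCAM_mas, against 0.0838 in Met_0, the lowest difference of the class. Notch3, a Notch receptor of vascular smooth muscle, had a difference of 0.246, Dld, an enzyme of the pyruvate dehydrogenase complex, one of 0.381, and Trpv1, the capsaicin receptor of sensory neurons, one of 0.384.

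Among the 3 imprinted probes, 2 were above Met_0 (66.7%, against 14.9% of all probes). Imprinted genes are methylated on 1 parental allele at their control regions. Sgce had 0.583 in A2B5_mas and 0.578 in PSA-NCAM_mas, against 0.107 in Met_0. Plagl1 had 0.448 in A2B5_mas and 0.444 in PSA-NCAM_mas, against 0.119 in Met_0. The gap between the brain arrays was 0.00527 at Sgce and 0.00351 at Plagl1. Calcr had 0.141 in A2B5_mas and 0.118 in PSA-NCAM_mas, against 0.126 in Met_0, and was in neither class.

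**Figure D3:**
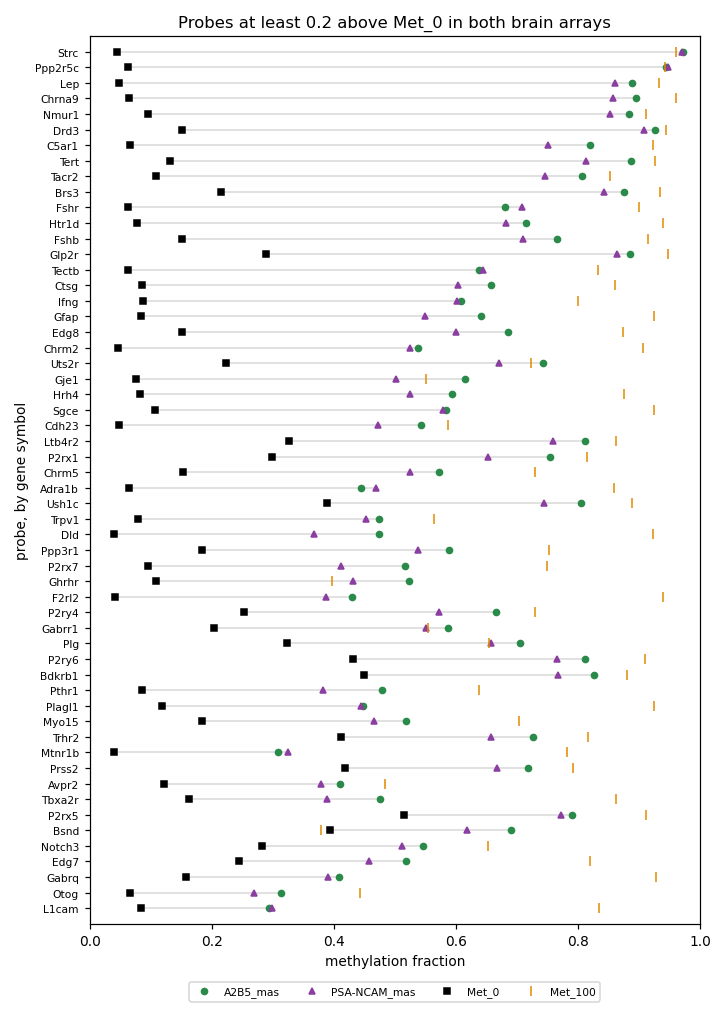
Methylation fraction (horizontal axis, 0 to 1) of 56 probes at least 0.2 above Met_0 in both brain arrays, 1 row per gene, ordered by the size of the difference; green circles are A2B5_mas, purple triangles PSA-NCAM_mas, black squares Met_0 and orange bars Met_100. The black squares lie at or under 0.515, and the brain points run from 0.270 (Otog in PSA-NCAM_mas) to 0.972 (Strc in A2B5_mas).

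The counts by group were not tested. Every member below Met_0 is in a named group and 3 of the 57 above it are in none. Several groups were extended with the values known, so this says nothing about the array's other genes.

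**Figure D4:**
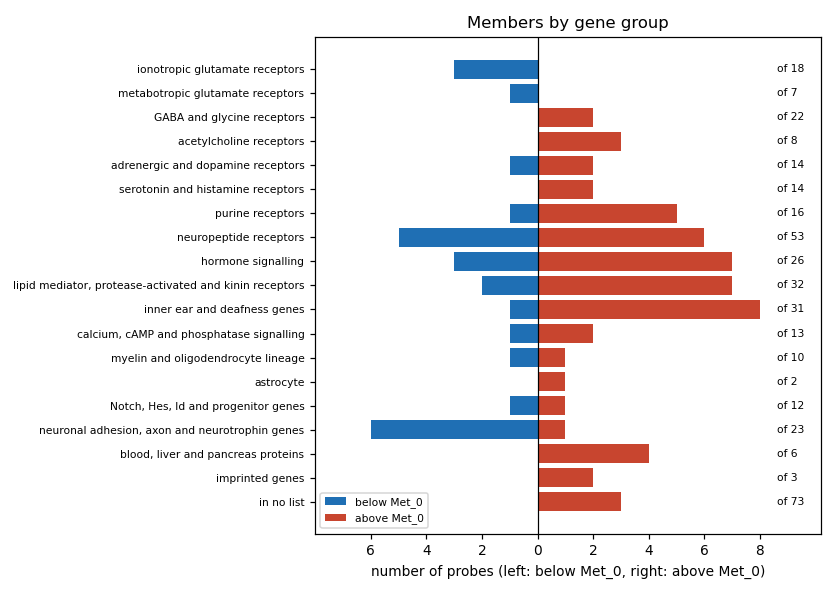
Number of probes below Met_0 (blue, to the left) and above Met_0 (red, to the right) in each gene group, with the number of probes of the group at the right edge. The group of neuronal adhesion, axon and neurotrophin genes has 6 below and 1 above, and the inner ear and deafness genes have 8 above and 1 below.

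Against the other Met arrays, the members above Met_0 spanned the whole control series. The brain mean, which the rule sets above Met_0, exceeded Met_25 at 41 of the 57 and Met_50 at 36. Over all 382 probes it did so at 54 and 43. Both brain values exceeded all 5 Met arrays at 5 probes of the array, all of them members: Strc, Ppp2r5c, Ghrhr, Plg and Bsnd. Bsnd had 0.690 in A2B5_mas and 0.618 in PSA-NCAM_mas, while its Met values ran only from 0.349 in Met_25 to 0.404 in Met_75. Ghrhr reached 0.397 in Met_100, below both of its brain values. At Strc and Ppp2r5c the margin over Met_100 was small, since Met_100 had 0.961 and 0.942. The first step of the Met series starts at Met_0, so probes were split by their Met_0 level. With Met_0 under 0.2, the series rose at each step at 36 of the 40 members above and at 185 of the 216 other probes. With Met_0 of at least 0.2, it did so at 11 of the 26 members below and at 72 of the 100 probes not called below. The rise from Met_0 to Met_100 reached 0.3 at 55 of the 57, and at 331 of all 382 probes.

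**Figure D5:**
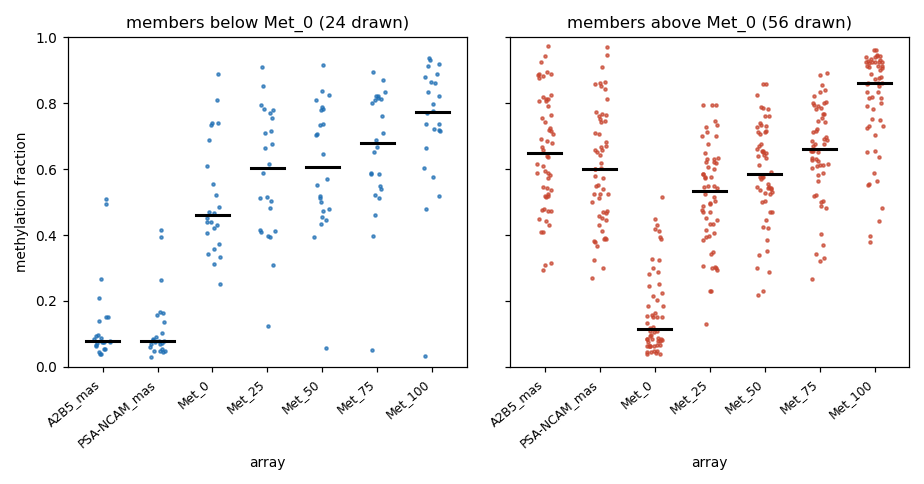
Methylation fraction (vertical axis, 0 to 1) of the members on each of the 7 arrays (horizontal axis), with members below Met_0 at left and members above it at right; points are probes, spread sideways at random, and black bars are medians. At left, over the 24 probes drawn, the median is 0.0775 in A2B5_mas and 0.460 in Met_0, and at right, over the 56 probes drawn, 0.649 in A2B5_mas and 0.114 in Met_0.

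The 2 brain arrays were closer to each other than to Met_0 at every member, which the rule makes likely. The difference of A2B5_mas from PSA-NCAM_mas had a median of 0.00207 over the members below Met_0, with 18 of 26 higher in A2B5_mas. Over the members above Met_0 it had a median of 0.0481, with 51 of 57 higher in A2B5_mas, against 249 of all 382 probes. The largest gap in either class was 0.114, at Gje1 above Met_0, and 0.113 at Lhcgr below it.

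X-linked genes, assigned from the RefSeq table, made up 6 of the 57 members above Met_0 (10.5%), 1 of the 26 below it (3.85%) and 17 of all 382 probes (4.45%). Those named above were Brs3, P2ry4, Avpr2, Gabrq, L1cam and Gria3. In female cells 1 X chromosome is inactive and methylated at many promoters, and the sex behind each array is not stated. The part of sex in these values was not tested.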

How the data were processed

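DNA methylation was measured in 7 samples with a custom Illumina GoldenGate array, per the labels. The deposited table holds 1 value for each of 382 probes on each array, read as a methylation fraction (beta value) from its range between 0 and 1. The sources used here name neither the software nor the genome build, and say nothing of background correction, probe filters or scaling between arrays. A background or scaling left in the values would move the differences. Precision is limited by 1 array per title. Each array was its own group, by its title.

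From the deposited fractions, the mean of the 2 brain arrays minus Met_0 was computed per probe in Python 3.11.15 with numpy 2.4.6 and pandas 2.3.3, and plotted with matplotlib 3.10.9. Members were called by size (0.2 in both brain arrays), with no test. The code was tested on simulated data. Symbols, the part of a probe ID before its last hyphen, were matched to RefSeq genes (GRCm38.p6): 362 of the 382 probes by current and 20 by older symbol. The number that ends each ID is not explained in the labels. Promoter sequences are from RefSeq. Members and gene groups were chosen with earlier results of these data known, and several groups were extended after values were seen. Groups follow the symbols of the file. The text names members of both classes, the probes at the limits and up to 2 other probes per group. 3 members, 2 below and 1 above Met_0, are counted but not reported here. Alternatives covered the size, the arrays required, the scaling, the scale and the probes used.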

Additional observations from a re-analysis of the deposited data

How the results depend on the processing

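Under the 10 alternatives for each count, the 57 probes above Met_0 ranged from 43 to 81 and stayed within a factor of 1.5. The 26 probes below Met_0 became 41 at a size of 0.15, 49 after quantile normalization, 87 on the log2 odds scale and 11 among probes rising by at least 0.3 from Met_0 to Met_100, and were 19 to 30 otherwise. By the share of each probe's own Met span (at least 0.3) 23 were below, but only 11 of the 26 members were among them, so 15 were lost and 12 other probes came in. The mean difference over all probes was 0.0244, opposite in sign to the median of -0.0165. Of 320 recomputed differences of single members 101 moved by more than the SD of 0.0325, 63 of them under quantile normalization, by up to 0.208. None of the 320 changed sign, but only quantile normalization could have changed it. With either brain array alone the rule fixes the sign, and subtracting the median moves a difference by only 0.0165. Quantile normalization gives the 3 arrays 1 distribution by construction. All 26 members below Met_0 were called again after quantile normalization, as were 47 of the 57 above. No paired analysis was possible because each title has 1 array, and for the same reason no replicate could be left out. Signal over background was not analysed here, so weakly hybridised probes were not set apart.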
